A study of Mus musculus with 8 samples.

Results

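Isolated wide YY1 sites of C2C12 myoblasts are autosomal peaks of 250 bp or more that lie 100 kb or more from the previous and the next peak on their chromosome. They were selected on 2 measured values, the width of the peak and the gaps to its neighbours, and a missing neighbour at the end of a chromosome counted as far. The rule found 286 members among 1820 deposited peaks. Of the 1758 autosomal peaks, 1218 were isolated, and the other 932 isolated peaks, under 250 bp, are called isolated narrow here. The remaining autosomal peaks had a neighbour within 100 kb, and 192 of them were wide and 348 narrow.

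C2C12 is a mouse myoblast line, kept in serum-rich medium as dividing myoblasts and moved to low horse serum to form myotubes. The series has 8 chromatin immunoprecipitation sequencing samples, 1 per group, and asks how YY1 targets differ between myoblasts and myotubes. The groups used here are YY1 in C2C12 myoblasts with antibody SC-1703 (Santa Cruz) and YY1 in C2C12 myoblasts with antibody AB58066 (Abcam). Both carry one and the same peak list, so each peak has a single value and the antibodies cannot be told apart. No genetic change or drug is given for either group. The myotube, IgG, Ezh2, H3K4me3 and H3K27me3 samples were not analysed here.

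YY1 (Yin Yang 1) is a zinc-finger protein that binds a short DNA motif at promoters and enhancers and can activate or repress transcription. It is known to bring distant DNA elements together, and in myoblasts it is known to hold muscle genes silent together with the Polycomb methyltransferase Ezh2. A peak is a stretch where immunoprecipitated DNA piled up beyond background. Its −log10 q says how sure the peak caller was of that excess. Deeper sequencing raises it and so does stronger enrichment, so it ranks the peaks of one list and is no level of binding. Peaks called strong or weak below are those with a high or low −log10 q, and nothing more is meant. Read depth is unknown. Positions are in mm9 as the list gives them, and no gene or sequence is assigned to a peak, because the tables at hand belong to GRCm38.p6.

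With 1 list and no replicates, no difference was tested. Intervals below are exact (Clopper-Pearson) 95% intervals of shares, or order-statistic 95% intervals of medians. They cover counting error only and treat peaks as independent.

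Isolated wide peaks had a median width of 349 bp (quartiles 298 and 423 bp), from 250 to 845 bp, and summed to 107 kb, or 28.3% of all autosomal peak sequence. By number they were 16.3% of autosomal peaks, and the selection on width in part fixes the larger share of sequence. Sonication was aimed at fragments of 100 to 300 nt. Of the 286, 210 (73.4%) were wider than 300 bp, a share that the 250 bp limit in part fixes. It was 68.2% of wide peaks with a neighbour within 100 kb (131 of 192) and 19.4% of all autosomal peaks (341 of 1758). Wide peaks made up 23.5% of isolated peaks (286 of 1218, interval 21.1 to 26.0%). Over all autosomal peaks they made up 27.2%. Put the other way, 59.8% of all wide peaks were isolated (286 of 478) and 72.8% of all narrow ones (932 of 1280).

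Most isolated wide peaks were strong, and a small minority lay near the lower end of the list, whose weakest autosomal peak had 5.01. Their median −log10 q was 62.68 (interval 53.27 to 75.32), with quartiles of 28.4 and 140.9 and a range from 5.12 to 513.08. Isolated narrow peaks had a median of 6.76 (interval 6.51 to 7.37) and ran from 5.05 to 125.58, so the ranges overlapped. One peak call gave both measures and the rule used width, so this contrast is a description that the choice of members in part fixes. In all, 264 of the 286 (92.3%) reached 10, against a background of 53.8% of all autosomal peaks. A value of 50 was reached by 171 members (59.8%, background 17.3%) and a value of 100 by 102 members (35.7%, background 9.39%).

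Wide peaks with a close neighbour were about as strong as isolated ones. Their median −log10 q was 60.64 (interval 53.14 to 76.84, n = 192) and their median width 329.5 bp, and both intervals overlapped those of the isolated wide peaks. A value of 200 was reached by 34 of 286 isolated wide peaks (11.9%, interval 8.38 to 16.2%) and by 14 of 192 neighboured wide ones (7.29%, interval 4.04 to 11.9%), again with overlapping intervals. Of 932 isolated narrow peaks 0 reached 200 (interval up to 0.40%). Of the 50 strongest autosomal peaks, 35 (70%, interval 55.4 to 82.1%) were isolated wide peaks, an interval that includes the 59.8% of all wide peaks that were isolated.

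**Figure D1:**
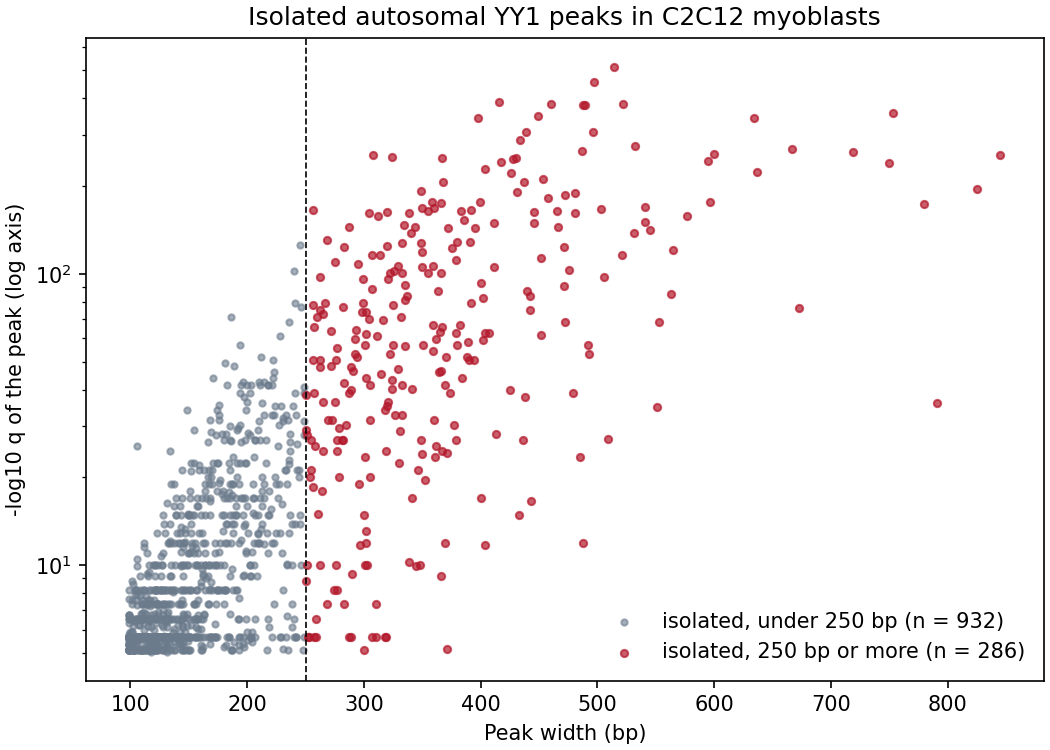
Width in bp (horizontal) against −log10 q on a log axis (vertical) of each isolated autosomal YY1 peak, with the 250 bp limit as a dashed line. The 286 wide peaks run from 5.12 to 513.08 and the 932 narrow ones from 5.05 to 125.58, and the cloud continues across the limit without a gap.

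The nearest peaks of the 10 strongest members had a median −log10 q of 14.4, from 5.12 to 69.69, beside a median of 11 for the nearest peaks of all 286 members and 11.7 for those of all autosomal peaks. The strongest of all, at chr14:27354300-27354814 (514 bp, −log10 q 513.08), had its nearest peak 1.69 Mb away, a peak of 107 bp with a value of 5.12. The next, at chr10:94786525-94787022 (497 bp, 456.03), had a peak of 19.08 at 177 kb. The peak at chr7:128850924-128851340 (416 bp, 388.33) was followed by 4.49 Mb without a peak, and its nearest peak, at 673 kb, had 13.9. At chr8:73397347-73397869 (522 bp, 382.49) the nearest peak was itself wide (327 bp) with 69.69, at 363 kb.

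In the other 6 of the 10 strongest, the nearest peak was under 250 bp wide and had a value from 5.6 to 22.34. These were chr15:88649589-88650049 (382.04, nearest peak 7.57), chr5:21207426-21207915 (378.61, nearest 14.9), chr11:95171454-95171942 (378.61, nearest 22.34), chr2:31525844-31526597 (356.36, nearest 5.6), chr5:134652541-134652990 (347.12, nearest 7.37) and chr4:115747488-115748122 (342.07, nearest 14.9). In all, 1 of the 10 strongest had a wide nearest peak, where all members had 78 of 286 (27.3%) and all autosomal peaks 29.2%. Their median gap to the nearest peak was 472 kb, from 177 to 1731 kb, and they lay on 9 autosomes.

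The 10 widest members were mostly not the 10 strongest, though their median −log10 q of 232 lay above the 62.68 of all members. Only chr2:31525844-31526597, of 753 bp, belonged to both the 10 widest and the 10 strongest. The widest was chr4:21774525-21775370 (845 bp, −log10 q 256.06), with 11.6 Mb free of peaks after it. It was followed by chr11:51501991-51502816 (825 bp, 195.05), chr7:134888859-134889650 (791 bp, 35.98) and chr7:4966157-4966937 (780 bp, 173.29). The chromosome 7 peak of 791 bp had the lowest value of the 10 widest. A pair on chromosome 10, at 79131598-79132348 (750 bp, 240.53) and 79316783-79317456 (673 bp, 76.17), lay 184 kb apart with no peak between. The other 3 of the widest were chr3:32635397-32636116 (719 bp, 261.53), chr18:39651156-39651823 (667 bp, 268.87) and chr17:85489432-85490069 (637 bp, 223.69). Of the 10 widest, 6 had a wide nearest peak, a count over few peaks beside the 27.3% of all members.

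Among isolated wide peaks, wider classes had higher values, with a broad scatter. The median −log10 q was 34 for the 74 peaks from 250 to under 300 bp, 47.17 for the 71 from 300 to under 350 bp and 64.35 for the 56 from 350 to under 400 bp. It was 123.98 for the 55 from 400 to under 500 bp, 146 for the 18 from 500 to under 600 bp and 248 for the 12 of 600 bp and more. The last 2 classes are thinly filled. Spearman's rho of width and −log10 q was 0.54 over the 286 peaks, which share a library and a peak call. Over the 932 isolated narrow peaks it was 0.61, so the trend was not particular to the wide ones.

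All 22 members with a −log10 q under 10 followed this trend, being narrower than 400 bp, 13 of them under 300 bp. Of all 286 members, 74 were under 300 bp and 83 (29.0%) were wider than 400 bp. Other members departed from the trend in either direction. Among members of 400 bp or more, 14 on 9 autosomes had a value under 50. The weakest of these were chr3:95428649-95429053 (404 bp, 11.7), chr9:110558745-110559233 (488 bp, 11.94) and chr11:108872981-108873414 (433 bp, 14.9). Conversely, 6 members under 300 bp reached 100, the strongest at chr1:82721273-82721529 (256 bp, 165.88) and chr1:157820411-157820698 (287 bp, 144.96). None of these 6 had a wide nearest peak, a count over few peaks beside the 27.3% of all members. These groups of peaks were chosen after their values were seen.

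At the lower end, the weakest member was chr15:7487937-7488237 (300 bp, −log10 q 5.12), followed by chr17:14748036-14748407 (371 bp, 5.14). A value of 5.67 was shared by 10 members, among them chr1:50900800-50901087 (287 bp), chr2:122544863-122545181 (318 bp) and chr4:55018340-55018599 (259 bp). In all, the 286 members took 199 distinct values, and 135 shared theirs with another member.

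The 250 bp limit cut through a continuous distribution. Isolated peaks numbered 82 from 200 to under 225 bp, 64 from 225 to under 250 bp, 39 from 250 to under 275 bp and 35 from 275 to under 300 bp, with median values of 15.76, 19.06, 29.19 and 40.03. Just inside lay chr2:38499319-38499569 (250 bp, −log10 q 38.35), chr2:102913433-102913683 (250 bp, 8.82) and chr17:46919475-46919725 (250 bp, 29.19). Also just inside were chr3:32428150-32428401 (251 bp, 28.01) and chr6:49213890-49214141 (251 bp, 10.05). Just outside, all at 249 bp, lay chr7:50568604-50568853 (38.89), chr11:98054450-98054699 (40.94), chr15:74917145-74917394 (31.3), chr15:78751779-78752028 (5.67) and chr19:3282934-3283183 (28.01). The peaks on the 2 sides spanned nearly the same values.

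The 5 members closest to another peak, with gaps from 101 to 107 kb, had values from 20.15 to 207.11. They were chr2:90894336-90894641 (20.15), chr11:77996907-77997167 (71.3), chr10:79316783-79317456 (76.17), chr11:72609213-72609650 (207.11) and chr9:78435728-78436108 (57.19). The 5 wide peaks just outside the gap limit, with gaps from 93.8 to 98.9 kb, had values from 26.86 to 91.55. They were chr15:79059414-79059812 (26.86), chr11:77795520-77795949 (31.55), chr11:77893692-77894067 (91.55), chr5:124933047-124933546 (91.55) and chr2:32816907-32817294 (61.36).

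A few strong isolated peaks missed the class by width alone. Of 932 isolated narrow peaks, 10 (1.07%) reached 50. The strongest were chr8:27268528-27268773 (245 bp, 125.58), chr2:30823395-30823635 (240 bp, 102.14) and chr16:20610704-20610945 (241 bp, 79.35). The narrowest of the 10 was chr9:95412191-95412377 (186 bp, 71.09). Isolated peaks at or above 50 were thus wide in 171 of 181 cases. This was not particular to isolated peaks, since 117 wide and 7 narrow peaks with a close neighbour reached 50. Width and −log10 q come from one peak call, so the width limit in part fixes such counts.

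Isolated wide peaks lay on every autosome, in numbers from 6 on chromosome 18 to 29 each on chromosomes 2 and 11. The share of isolated peaks that were wide ran from 14.3% on chromosome 8 (8 of 56, interval 6.38 to 26.2%) to 33.3% on chromosome 6 (23 of 69, interval 22.4 to 45.7%). It was 32.6% on chromosome 16 (15 of 46), 31.3% on chromosome 17 (15 of 48), 28.4% on chromosome 11 (29 of 102), 16.4% on chromosome 15 (12 of 73) and 15% on chromosome 18 (6 of 40). On all 19 autosomes the interval included the overall 23.5%. Differences between autosomes were not tested.

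**Figure D2:**
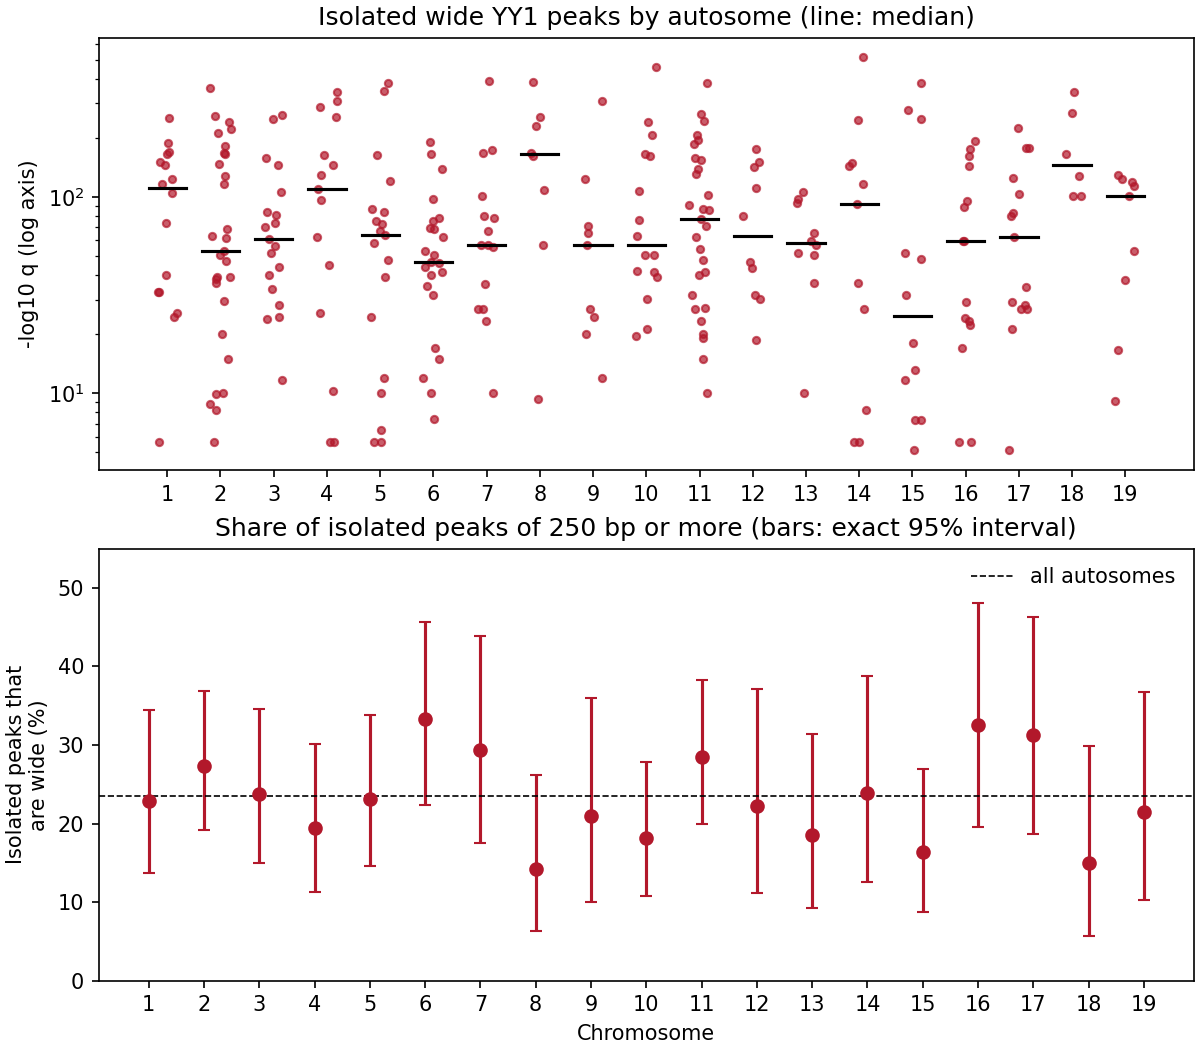
Upper panel: −log10 q on a log axis of each isolated wide peak by autosome, with the median as a line. Lower panel: percent of isolated peaks that were wide by autosome with exact 95% intervals, all of which include the dashed overall share of 23.5%.

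Every autosome held at least 1 isolated wide peak that reached 100. Members had a higher median −log10 q than isolated narrow peaks on all 19 autosomes, which the selection on width in part fixes. The members' median ran from 24.8 on chromosome 15 (12 members) to 164.87 on chromosome 8 (8 members). Chromosome 8 joined the lowest share of wide peaks with the highest median. On chromosome 15 the members ran from 5.12 to 382.04, and 3 of 12 reached 100. On chromosome 18 all 6 reached 100, from 100.62 to 342.07, and on chromosome 13 it was 1 of 10, with the highest at 106.37. Medians over so few peaks rest on 1 or 2 of them.

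The strongest member of each autosome, where not yet given, was as follows. Chromosome 18 had chr18:62708293-62708691 (342.07), chromosome 9 had chr9:21807122-21807561 (307.93) and chromosome 1 had chr1:165859692-165860016 (252.43). The last was only 324 bp wide. Values were lower at chr16:92466488-92466837 (192.12), chr6:91827743-91828174 (190.4), chr12:4233815-4234181 (175), chr19:54018780-54019171 (128.78) and chr13:13959366-13959695 (106.37). Across the 19 autosomes these peaks had a median of 342.07 and a median width of 460 bp. In 5 of 19 the nearest peak was wide, about the share of all members (27.3%) and of all autosomal peaks (29.2%).

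Beyond the 100 kb required, isolated wide peaks had a median gap to the nearest peak of 392 kb (interval 316 to 485 kb, quartiles 187 and 887 kb), and isolated narrow peaks 454 kb (interval 401 to 521 kb). The intervals overlapped. A nearest gap of 1 Mb or more was found for 63 of 286 isolated wide peaks (22.0%, interval 17.4 to 27.3%) and 247 of 932 isolated narrow ones (26.5%, interval 23.7 to 29.5%). Strength showed no steady trend with the gap among members, with a median −log10 q of 58.6 for gaps from 100 to under 200 kb, 70.4 from 200 to under 500 kb, 57.19 from 500 kb to under 1 Mb and 75.4 from 1 Mb up (rho 0.03, n = 286).

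The most remote member was chr17:95148892-95149305 (413 bp, −log10 q 28.2), the last peak of its chromosome, 6.22 Mb from the peak before it. Next came chr13:119175992-119176293 (301 bp, 10.05), also the last of its chromosome, at 3998 kb, and chr7:13063503-13063779 (276 bp, 10.05) at 3.47 Mb. The peak at chr14:30791368-30791779 (411 bp, 149.09) lay 3.44 Mb from its nearest peak, which was the strongest member of all. Then came chr1:42907899-42908266 (367 bp, 24.58), at 2.94 Mb from a member of 541 bp with a value of 169.92.

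The nearest peak of a site was not used by the rule beyond its distance, so its strength is a separate value. It was nearly the same beside isolated wide and isolated narrow peaks. The median −log10 q of the nearest peak was 11 beside the wide ones (interval 8.24 to 13.6) and 9.66 beside the narrow ones (interval 8.24 to 10.05). The nearest peak was wide for 78 of 286 isolated wide peaks (27.3%, interval 22.2 to 32.8%) and for 234 of 932 isolated narrow ones (25.1%, interval 22.4 to 28.0%). It reached 100 for 24 of 286 (8.39%, interval 5.45 to 12.2%) and for 72 of 932 (7.73%, interval 6.09 to 9.63%). A peak can be the nearest of both a wide and a narrow one.

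By autosome, the share of wide nearest peaks was higher beside isolated wide peaks on 9 and lower on 10, and the median −log10 q of the nearest peak was higher on 12 and lower on 6. The autosomes disagreed widely. On chromosome 16 the nearest peak was wide for 53.3% of 15 members and 22.6% of 31 isolated narrow peaks, and on chromosome 17 for 6.67% of 15 and 45.5% of 33. Within the members, the value of a peak and of its nearest peak had a rho of 0.05 (n = 286). By contrast, the nearest peak of neighboured wide peaks was wide for 94 of 192 (49.0%, interval 41.7 to 56.3%), an interval above that of the isolated wide ones. For neighboured narrow peaks it was wide for 107 of 348 (30.7%, interval 25.9 to 35.9%). The peaks in that comparison are each other's neighbours in part.

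Distances to the nearest other wide peak were further apart than those to any peak. From isolated wide peaks the median was 1.14 Mb (interval 0.92 to 1.64 Mb) and from isolated narrow peaks 2.11 Mb (interval 1.84 to 2.38 Mb), and these intervals did not overlap. They did overlap with a gap limit of 200 kb (1.17 to 2.29 against 2.21 to 2.78 Mb) or 500 kb (1.93 to 3.44 against 2.81 to 3.74 Mb), with a width limit of 400 bp (3.23 to 7.05 against 5.88 to 7.14 Mb), and with peaks under a −log10 q of 10 left out (0.92 to 1.61 against 1.35 to 2.02 Mb). The upper quartiles were 3.67 and 5.15 Mb, and the longest distances 29.7 and 47.7 Mb. The median was shorter from the wide peaks on 12 of 19 autosomes and longer on 7. It was 0.62 against 2.93 Mb on chromosome 15 and 0.89 against 3.02 Mb on chromosome 10, but 8.67 against 3.67 Mb on chromosome 9 and 5.30 against 2.60 Mb on chromosome 13. On chromosome 11, the autosome with the most peaks (161), both were short, at 0.50 and 0.71 Mb, and the part of the number of peaks in the difference was not tested.

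**Figure D3:**
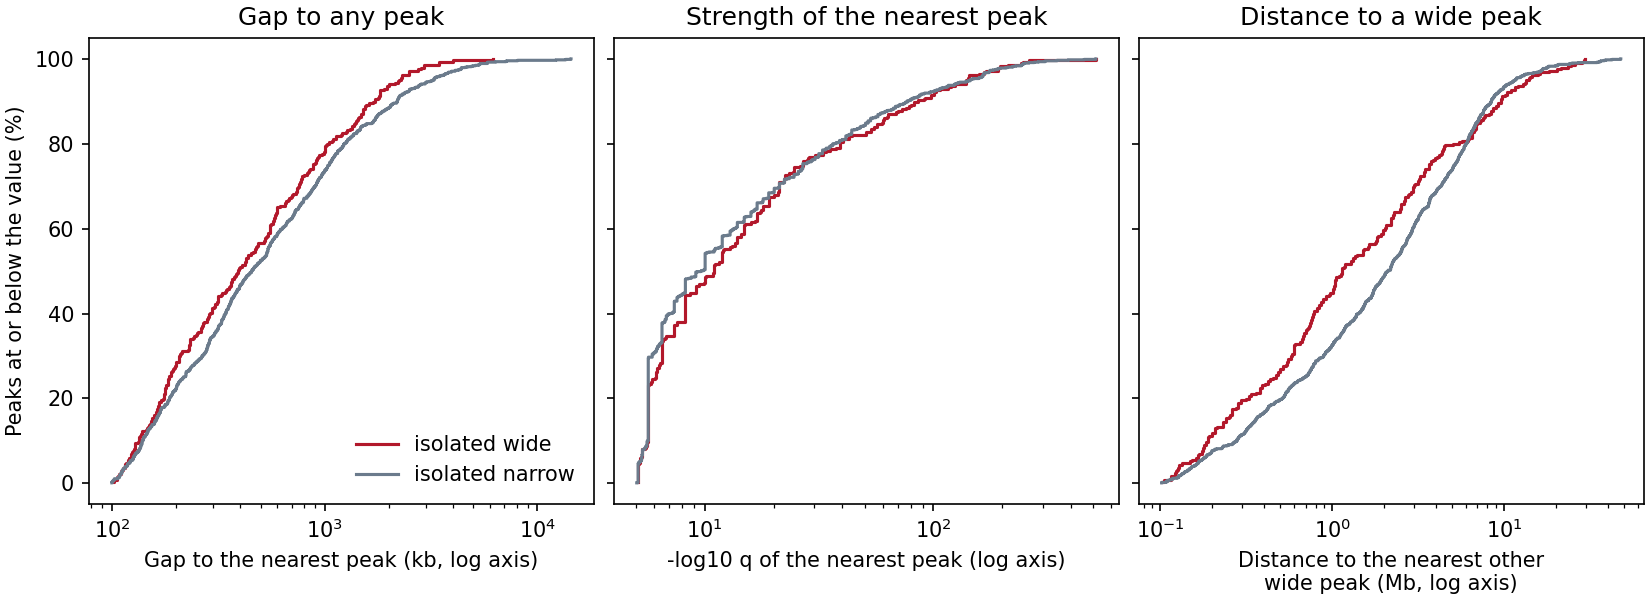
Cumulative percent of isolated wide (red) and isolated narrow (grey) peaks against the gap to the nearest peak in kb, the −log10 q of that nearest peak, and the distance in Mb to the nearest other wide peak, all on log axes. The curves lie close together in the middle panel, and in the right panel the medians are 1.14 and 2.11 Mb.

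Isolated wide peaks were flanked by wide peaks about as often as their share in the list. Over both sides, the flanking peak was wide in 27.2% of cases for isolated wide peaks (154 of 566, interval 23.6 to 31.1%) and in 23.0% for isolated narrow ones (423 of 1837, interval 21.1 to 25.02%), beside 27.2% of all autosomal peaks. It was itself isolated and wide in 21.9% (124 of 566) and 19.1% (350 of 1837) of cases, and the intervals overlapped in both comparisons. Of the 286, 108 had another isolated wide peak as the previous or next peak. These formed 33 runs of 2, 10 runs of 3 and 3 runs of 4 with no other peak between. Of the 62 pairs of such neighbours, 17 were each other's nearest peak. Isolated wide peaks made up 16.3% of all autosomal peaks and 23.5% of isolated ones. How many runs these shares alone would give was not tested.

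The runs of 4 lay on chromosomes 6, 10 and 16 and spanned 2.61, 2.60 and 3.02 Mb. On chromosome 6 the run held peaks at 85381845-85382211 (−log10 q 46.56), 86354145-86354469 (40.15), 86477058-86477589 (138.44) and 87995203-87995595 (165.22). On chromosome 10 it held 41022974-41023313 (161.51), 42197988-42198357 (41.42), 42941007-42941486 (38.89) and 43621346-43621705 (106.75). On chromosome 16 it held 33056372-33056743 (24.24), 33184887-33185282 (143.33), 35022230-35022534 (161.51) and 36071967-36072369 (59.4). Each run joined 2 peaks above 100 with 2 below. They were picked out after the values were seen.

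A larger share of the isolated wide peaks than of the isolated narrow ones lay in the distal part of the chromosomes. Mouse autosomes carry the centromere at the start of their numbering. On each autosome the region between the outermost peaks was cut into 4 equal segments, which held 51, 54, 82 and 99 isolated wide peaks, or 17.8, 18.9, 28.7 and 34.6%. For isolated narrow peaks the shares were 24.0, 21.5, 26.0 and 28.5%. Segments 3 and 4, the distal ones, held 181 of 286 isolated wide peaks (63.3%, interval 57.4 to 68.9%), 508 of 932 isolated narrow ones (54.5%, interval 51.2 to 57.7%) and 57.2% of all autosomal peaks. The intervals of the first 2 overlapped between 57.4 and 57.7%.

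The distal share was higher for wide than for narrow isolated peaks on 15 of 19 autosomes, lower on 3 and equal on 1. It was 83.3% (10 of 12) against 50.8% on chromosome 15, 84.2% (16 of 19) against 60.7% on chromosome 3 and 79.3% (23 of 29) against 63.0% on chromosome 11. It was lower on chromosome 9 (44.4% against 58.8%), on chromosome 14 (27.3% against 37.1%) and on chromosome 16 (33.3% against 35.5%). The difference was not tested.

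**Figure D4:**
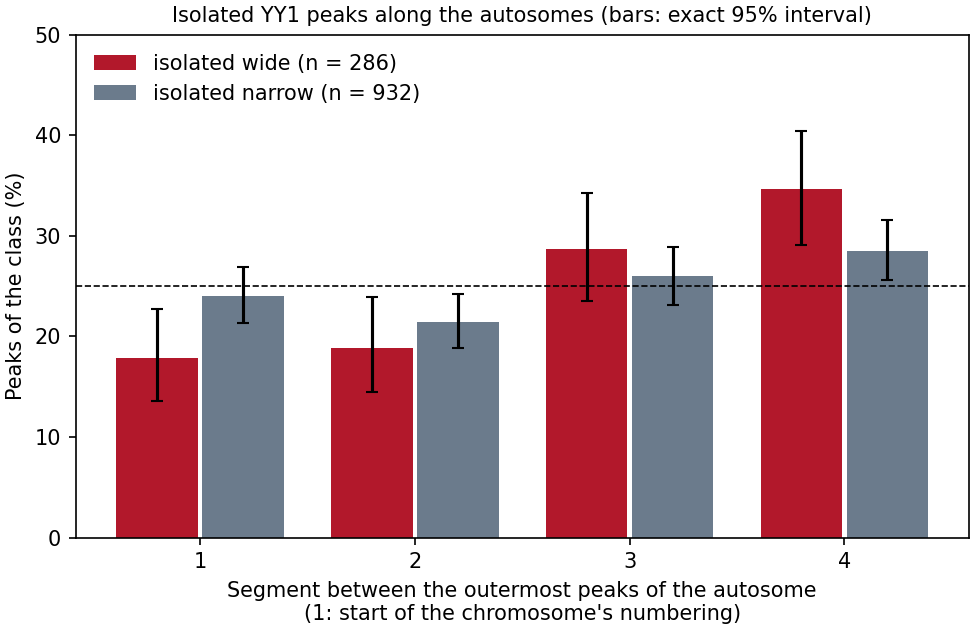
Percent of isolated wide (red, n = 286) and isolated narrow (grey, n = 932) peaks in each of 4 equal segments between the outermost peaks of their autosome, with exact 95% intervals and an equal share of 25% dashed. The wide class holds 17.8% in segment 1 and 34.6% in segment 4.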

How the data were processed

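YY1 peaks of C2C12 myoblasts were deposited as 2 identical lists, one for each antibody sample, and counted once. The submitters' processing notes name MACS2 (2.0.9) and build mm9. Not given in the sources used here were the aligner, control, q limit and any pooling of antibodies. Each deposited row holds, per the file headers, the position of a peak and the −log10 of its q-value. Commas were removed from 6 rows, and 49 X and 13 mitochondrial peaks were left out. Width is end minus start, and a gap runs from the end of a peak to the start of the next. The base from which starts count is not stated. The selection was tested on simulated lists. Python 3.11.15, pandas 2.3.3 and scipy 1.17.1 were used.

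The members and lists were chosen with earlier results of these data known. Peaks named by rule were the 10 strongest, 10 widest, 5 weakest and 5 most remote members, the strongest per autosome and those nearest the width limit. Peaks near the gap limit, runs and departures from the width trend were added after seeing values, as were distances to wide peaks and positions along chromosomes. Width limits, gap limits, chromosome ends, weak peaks and joined peaks were varied.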

Additional observations from a re-analysis of the deposited data

How the results depend on the processing

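Over 9 alternatives, 53 of 81 values stayed within the interval of the reported value (counts within 1.5 times), and 28 did not. Of the 81, 18 belong to the distances and distal shares, which were added after the data were seen. Leaving out the first and last peak of each chromosome, or joining peaks closer than 1 kb, moved no value beyond its interval. A width limit of 200 bp gave 432 isolated wide peaks, 35.5% of isolated peaks, with a median −log10 q of 38.62, a median width of 296.5 bp and a wide nearest peak for 40.5%. A limit of 300 bp gave 17.4% of isolated peaks, medians of 84.13 and 374.5 bp, a wide nearest peak for 20.8% and a median distance to a wide peak of 1.74 Mb. A limit of 400 bp gave 85 peaks (6.98%), medians of 150.3 and 476 bp, a wide nearest peak for 3.53% and a distance of 4.83 Mb. Each width limit also set which neighbours counted as wide, so these shares and distances do not refer to the same wide peaks. The limit thus in part fixes these shifts. Isolated narrow peaks moved in the same direction, with a wide nearest peak for 36.4, 16.2 and 6.88% at 200, 300 and 400 bp. Their distance was 2.94 Mb at 300 bp and 6.58 Mb at 400 bp, beside 2.11 Mb and 25.1% at 250 bp. Other causes were not tested. The median gap was 283 kb with a gap limit of 50 kb, 599.6 kb with 200 kb and 1001 kb with 500 kb, and the distance to a wide peak 0.86, 1.81 and 2.63 Mb. With 500 kb, 124 peaks were left and 56.5% lay in the distal segments, against 50% of isolated narrow ones. With peaks under a −log10 q of 10 left out, wide peaks made up 46.1% of isolated peaks, their median gap was 636 kb, and their nearest peak had a median of 25.71 and was wide for 46.4%, against 26.86 and 46.1% for isolated narrow peaks. In all 9 alternatives the median distance to a wide peak was shorter, and the distal share higher, for wide than for narrow isolated peaks. The alternatives re-cut one list and share members, so they are not independent of the main result. The intervals of the distances overlapped in 4 of the 9 (gap limits of 200 and 500 kb, the width limit of 400 bp and weak peaks left out) and those of the distal shares in 8. No paired analysis was possible because the list has no replicates, and for that reason none was left out. Read depth is unknown, so a missing peak cannot be read as missing binding.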
